A study of Mus musculus with 6 samples.

Results

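The genes of the ATF4 response, of amino acid carriers and of cytosolic tRNA synthetases were examined in CD4+ CD25+ T cells from mouse spleen, the marker combination by which regulatory T cells are isolated. The 38 members were taken by gene symbol and comprise 8 regulators of the ATF4 pathway, 12 enzymes of serine, one-carbon, asparagine, proline and cysteine metabolism, 6 carriers and 12 synthetases. On the arrays, 36 members had a transcript cluster (the set of probes that reports a gene) carrying their symbol alone, and 31 of these passed the intensity filter and stand among the 16825 genes tested. Trib3, Chac1, Sesn2, Cth and Slc1a4 lay below the filter, Aars shares its cluster with Exosc6, and array values of Pycr1 were not analysed here.

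Cells of Keap1_KO mice (VAVcreKeapfl/fl, genotype Keap1 -/-, arrays B, C and D) were compared with cells of WT mice (Keap1 +/+, arrays A, D and F), with 3 arrays per genotype. Keap1_KO mice carry a floxed Keap1 gene and a Vav-driven Cre recombinase, which is active in blood-forming cells at large and is therefore not specific to T cells. The labels do not say whether the WT mice carried Cre. All mice were male C57BL/6 and untreated, and cells were taken from spleen by magnetic separation. The sample labels all give CD4+, whereas the title of the series has CD4-, and Cd4 itself read 12.09 to 13.29 in Keap1_KO and 11.16 to 12.30 in WT on the log2 scale. The labels give 2 ages that conflict, 10 to 12 months and 6 to 10 weeks. The triplicates are called independent, but no label ties an array to its own mouse, and the p-values therefore rest on array-to-array spread that can include technical variation.

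ATF4 is a transcription factor whose translation increases when kinases phosphorylate the initiation factor eIF2 alpha, as happens when amino acids are scarce, when the endoplasmic reticulum is stressed or when heme is lacking. It switches on genes that import amino acids, make serine, glycine, asparagine and proline, and charge tRNAs, and it binds a composite element for C/EBP and ATF factors. KEAP1 holds down NRF2, another transcription factor of the same bZIP class, and in human tumour cells NRF2 is known to raise ATF4 and the serine synthesis genes. Activated T cells depend on amino acid uptake and on one-carbon units from serine for growth. Because ATF4 is controlled at translation, its mRNA does not report its activity directly.

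The letters of the C/EBP-ATF element are shown first because the element defines many known ATF4 targets and the array results can be read beside it. RefSeq promoter windows (GRCm38.p6, 250 bases before to 50 bases after the start of the gene) were matched for 29 of the 38 members. The letters TGATGNAA were searched on both strands, and 10 of the 29 members held them, against 3.09% of the 9904 genes tested that have a window and 4.51% of all 27025 genes with a window. In the following stretches of 30 bases from 9 of these members, each read 5′ to 3′ on the strand where the element spells TGATGNAA, capitals mark the element.
Asns, chr6:7693214-7693243, minus strand: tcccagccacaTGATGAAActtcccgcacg
Chac1, chr2:119351038-119351067, minus strand: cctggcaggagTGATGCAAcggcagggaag
Trib3, chr2:152344028-152344057, plus strand: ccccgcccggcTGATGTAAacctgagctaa
Slc1a4, chr11:20332699-20332728, plus strand: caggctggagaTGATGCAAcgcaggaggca
Pycr1, chr11:120643833-120643862, minus strand: tgccctgtgtaTGATGCAAtgcacaaggct
Gars, chr6:55037960-55037989, minus strand: cgcccggtgcaTGATGAAAtagcgcagcca
Iars, chr13:49682126-49682155, minus strand: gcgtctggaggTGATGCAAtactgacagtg
Tars, chr15:11399655-11399684, plus strand: agctaaccagcTGATGCAAcgggactcctg
Yars, chr4:129189895-129189924, plus strand: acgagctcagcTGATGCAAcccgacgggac
The variant TGATGCAA made up 6 of the 9 copies shown. The letters TGACNNNGC of the antioxidant response element, which NRF2 binds, were searched in the same way. They stood in 9 of the 29 members, against 16.3% of the tested genes with a window and 14.0% of all 27025 genes with one. The searched letters of these elements do not overlap in Asns, whose whole window is given because it holds both, with the C/EBP-ATF copy in capitals: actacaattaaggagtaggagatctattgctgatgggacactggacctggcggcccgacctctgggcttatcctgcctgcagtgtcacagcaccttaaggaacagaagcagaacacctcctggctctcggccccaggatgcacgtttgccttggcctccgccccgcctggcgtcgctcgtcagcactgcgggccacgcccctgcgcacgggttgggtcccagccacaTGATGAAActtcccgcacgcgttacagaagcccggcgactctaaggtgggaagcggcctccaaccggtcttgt (chr6:7693160-7693459, minus strand). The window of Iars also holds the letters of both elements. A match is a description of letters and not evidence of binding.

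Values are deposited log2 values, differences are Keap1_KO minus WT on that scale, and means carry the SD over 3 arrays. Single values are listed in the order B, C, D for Keap1_KO and A, D, F for WT. Keap1 itself read 4.87, 4.89 and 4.70 in Keap1_KO, against 5.30, 5.41 and 5.77 in WT, so the groups did not overlap, although most of these values lay below the median of their array. The arrays do not fall apart by genotype: over the genes tested, Keap1_KO B correlated at 0.988 with WT A and at 0.961 and 0.958 with Keap1_KO C and D. No gene passed limma's adjusted threshold of 0.05 in either direction (0.00% of 16825 genes), while 1733 genes had an unadjusted p under 0.05 (10.3%). The T cell marker Cd3e was strong (15.04 to 16.19 in Keap1_KO and 14.30 to 15.27 in WT), as was Il2ra, the gene of CD25 (13.60 to 14.19 in Keap1_KO and 13.77 to 14.18 in WT). In bulk RNA such as this, fewer cells of a type and less RNA per cell cannot be told apart.

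Most members had a higher mean in Keap1_KO cells, and none passed the adjusted test. Of the 31 members tested, 27 had a higher mean, and their median difference was 0.39, against 56.5% of all genes with a higher mean and a median of 0.06. Protein-coding genes had a median of 0.08 with 59.6% higher, and the 3238 protein-coding genes whose level lay between the members' quartiles of 7.59 and 9.82 had a median of 0.20 with 66.9% higher. In 5 members, Ddit3, Phgdh, Psph, Slc1a5 and Wars, every Keap1_KO array lay above every WT array (background 9.11% of all genes and 10.7% of protein-coding genes), and in none did every Keap1_KO array lie below (background 4.96%). An unadjusted p under 0.05 was reached by 6 members, all higher in Keap1_KO: Ddit3, Phgdh, Shmt2, Slc1a5, Sars and Wars (background 8.38% of all genes and 8.96% of protein-coding genes in that direction). A difference above 1 was seen in 3 members, Shmt2, Ddit3 and Sars (background 6.81% of all genes and 5.89% of protein-coding genes). The lowest adjusted p among members was 0.476.

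**Figure D1:**
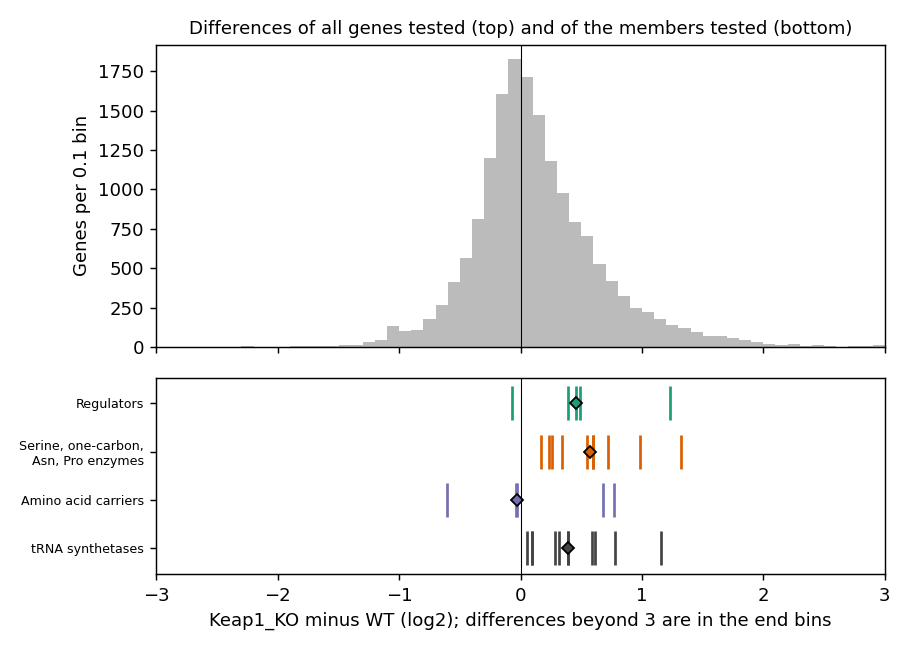
Keap1_KO minus WT on the log2 scale for the 16825 genes tested (top, genes per bin of 0.1) and for the 31 members tested by role (bottom, 1 line per member, diamonds at the medians of 0.46, 0.57, -0.03 and 0.39 from top to bottom). The enzyme and synthetase lines all lie right of 0, and the carriers lie on both sides.

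The members' values also varied between arrays of the same genotype. Keap1_KO C lay above all 3 WT arrays in 22 of 31 members (38.2% of all genes) and Keap1_KO D in 23 (42.3%), with both above in 20 (31.4%). Keap1_KO B lay inside the WT range in 25 of 31 (65.9% of all genes) and above it in 6 (18.9%). WT F gave the lowest value of the 6 arrays in 22 members, where it was lowest in 34.4% of all genes. Without Keap1_KO B, limma called 569 genes (3.38%) and 2 of the 31 members, Ddit3 (difference 1.69, adjusted p = 0.0344) and Phgdh (1.39, adjusted p = 0.0367). Without WT D, 12 of 31 members had every Keap1_KO array above both remaining WT arrays (background 23.7%). With array weights estimated by limma, which gave Keap1_KO B 0.35 and WT A 3.38, 1880 genes (11.2%) and 9 members passed. Without WT F, 23 of 31 members had a higher mean and the median difference was 0.21.

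**Figure D2:**
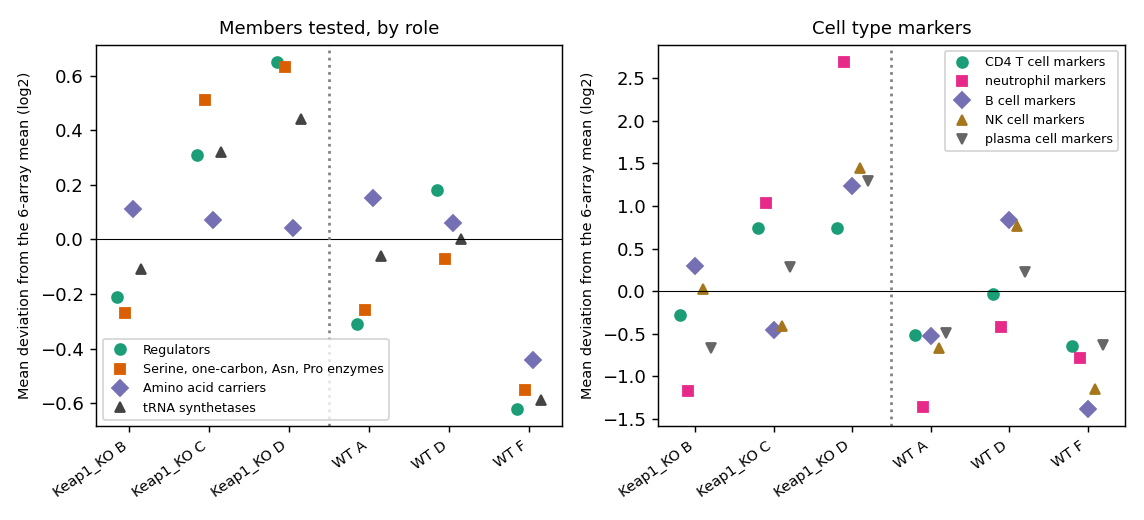
Mean deviation of each list from its own 6-array mean (log2), per array, for the members tested by role (left) and for marker lists of CD4 T, neutrophil, B, NK and plasma cells (right), with Keap1_KO arrays left of the dotted line and WT arrays right of it. Enzymes, regulators and synthetases sit above 0 on Keap1_KO C and D and below 0 on Keap1_KO B, WT A and WT F. On WT D the enzymes stood at -0.07 and the regulators at 0.18. The neutrophil markers spread over a wider range than the members.

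Markers of other cells also differed between the arrays. The 9 neutrophil markers, all tested, had mean deviations of -1.17, 1.04 and 2.69 in Keap1_KO, against -1.36, -0.42 and -0.78 in WT. Their mean level ranged from 8.17 to 12.03 in Keap1_KO and from 7.98 to 8.92 in WT, with 8 of 9 higher in Keap1_KO and a median difference of 1.88. Ngp, a neutrophil granule gene, differed by 2.68, while the receptor gene Csf3r read 5.65 to 6.25 in Keap1_KO and 5.75 to 6.04 in WT, close to the array medians of 5.16 to 5.43. Of the macrophage and monocyte markers, 5 of 6 were tested and all 5 were higher (mean level 6.88 to 8.43 in Keap1_KO and 6.36 to 7.70 in WT), with 2.86 for the lysozyme gene Lyz2, the largest difference of any marker, and 0.01 for Csf1r. The 7 CD4 T cell markers also had higher means in all 7 (median 0.96, mean level 14.34 to 15.37 in Keap1_KO and 13.98 to 14.59 in WT), led by the adaptor gene Lat with 1.12. Of the 5 regulatory T cell markers, 4 were tested, 2 of them with a higher mean (median 0.02), and the mean level was 13.02 to 13.57 in Keap1_KO and 12.67 to 12.97 in WT. Their mean deviations were -0.05, 0.41 and 0.49 in Keap1_KO, against -0.40, -0.10 and -0.35 in WT. Tnfrsf18, the gene of the receptor GITR, read 10.52, 12.65 and 13.36 in Keap1_KO, against 9.43, 10.81 and 9.22 in WT, a difference of 2.35 in which Keap1_KO B overlapped WT. Foxp3, the lineage factor gene, shares its cluster with Ppp1r3fos and 4930524L23Rik. That cluster read 11.11, 12.41 and 12.08 in Keap1_KO, against 10.76, 10.76 and 11.15 in WT. The 6 plasma cell markers had a mean level of 7.21 to 9.16 in Keap1_KO and 7.25 to 8.10 in WT, the 5 B cell markers tested 7.29 to 8.98 in Keap1_KO and 6.37 to 8.59 in WT, and the 6 NK cell markers 7.98 to 9.83 in Keap1_KO and 7.24 to 9.15 in WT. The part of these markers in the members' differences was not tested.

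Among the regulators, Ddit3 stood furthest apart. Ddit3 encodes CHOP, a stress-induced bZIP factor that acts downstream of ATF4. It read 9.20, 10.57 and 10.58 in Keap1_KO, against 8.74, 9.02 and 8.89 in WT. The groups did not overlap, with Keap1_KO B 0.18 above the highest WT array. The difference was 1.23 (SE 0.39, 2.35-fold, limma adjusted p = 0.476, exact two-sided permutation p = 0.1, the smallest that 3 against 3 arrays allow).

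Atf4 itself read 7.81, 8.15 and 8.33 in Keap1_KO, against 7.95, 7.88 and 7.08 in WT. The groups overlapped, and the lowest value was that of WT F. Its difference of 0.46 had a 95% interval of -0.23 to 1.16 (limma, adjusted p = 0.518), and it was 0.18 without WT F. Atf5, a relative of ATF4 that is likewise controlled at translation, averaged 6.46 ± 0.05 in Keap1_KO and 6.52 ± 0.24 in WT, a difference of -0.07 that was 0.05 after median centring of the arrays, 0.03 after repeated quantile normalization and 0.07 without WT D.

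The remaining regulators gave no separation. Ddit4, which encodes the mTORC1 inhibitor REDD1, read 8.59, 8.90 and 10.53 in Keap1_KO, against 8.43, 10.04 and 8.09 in WT. One array in each genotype was high, and the interval of its difference, -1.17 to 2.14, was the widest among the members. Its difference of 0.49 was -0.11 without Keap1_KO D. Eif4ebp1, whose product 4E-BP1 represses cap-dependent translation, averaged 8.32 ± 0.36 in Keap1_KO and 7.93 ± 0.32 in WT. Trib3, a pseudokinase that feeds back on ATF4, averaged 4.54 ± 0.09 in Keap1_KO and 4.60 ± 0.14 in WT. Chac1, a glutathione-degrading enzyme, averaged 4.09 ± 0.05 in Keap1_KO and 4.31 ± 0.17 in WT, and Sesn2, a leucine sensor that restrains mTORC1, 4.97 ± 0.16 in Keap1_KO and 4.77 ± 0.09 in WT. These last 3 lay below the array median on all 6 arrays, so these values do not show whether the genes changed. The promoters of Trib3 and Chac1 are among those holding the element printed above.

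**Figure D3:**
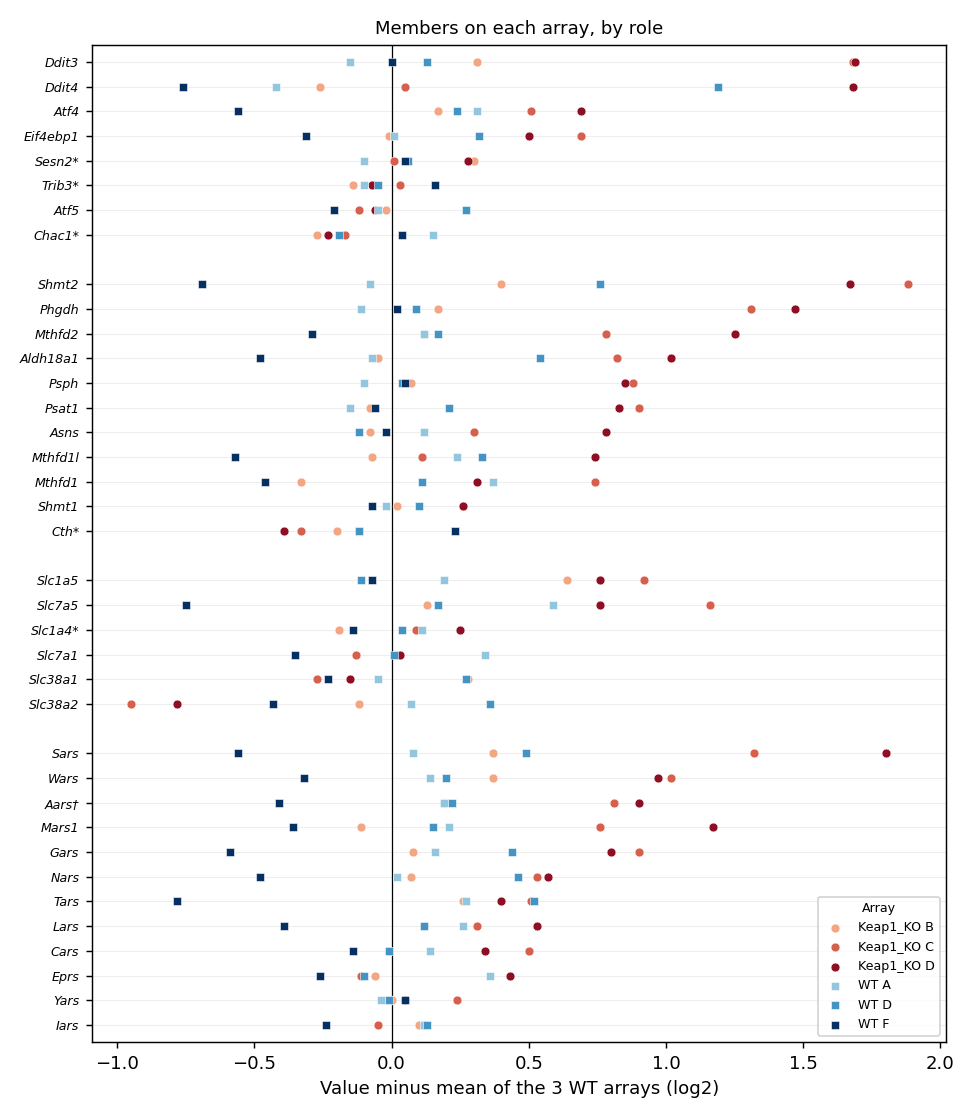
Each member's value on each array minus the mean of the 3 WT arrays (log2), with Keap1_KO arrays as circles and WT arrays as squares, and members grouped from top to bottom as regulators, enzymes, carriers and synthetases. Asterisks mark members below the intensity filter and the dagger marks Aars, on a shared cluster; Slc1a5 has all 3 circles right of all squares by the widest gap, 0.45.

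For Phgdh, Psat1 and Psph of serine synthesis, Keap1_KO C and D lay above all WT arrays. The same held in 20 of the 31 members tested and in 31.4% of all genes, so it is not particular to this pathway. All 10 enzymes tested had a higher mean in Keap1_KO (median 0.57), and 2 of them, Phgdh and Psph, separated the groups (background 9.11% of all genes and 10.7% of protein-coding genes). PHGDH catalyses the committed step of serine synthesis from the glycolytic intermediate 3-phosphoglycerate. Phgdh read 6.82, 7.96 and 8.12 in Keap1_KO, against 6.54, 6.74 and 6.67 in WT. The WT arrays lay close together and Keap1_KO B exceeded them by 0.08, whereas Keap1_KO C and D were higher by more than 1. The difference was 0.98 (SE 0.36, 1.98-fold, limma adjusted p = 0.476, exact permutation p = 0.1).

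At the next steps Keap1_KO C and D were again the highest arrays. Psat1, the aminotransferase that follows PHGDH, read 7.29, 8.27 and 8.20 in Keap1_KO, against 7.22, 7.58 and 7.31 in WT, so Keap1_KO B overlapped WT. Psph, the phosphatase that releases serine, read 6.07, 6.88 and 6.85 in Keap1_KO, against 5.90, 6.04 and 6.05 in WT, with Keap1_KO B 0.02 above WT. Their differences were 0.55 (SE 0.30) and 0.60 (SE 0.26), and both had limma adjusted p above 0.05 (0.498 and 0.476).

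Enzymes that pass serine carbon into the folate cycle differed most for the mitochondrial hydroxymethyltransferase. Shmt2 read 7.20, 8.68 and 8.47 in Keap1_KO, against 6.72, 7.56 and 6.11 in WT. The groups overlapped through Keap1_KO B and WT D, and the difference of 1.32 (SE 0.51, 2.50-fold, limma adjusted p = 0.476) was the largest of the members tested. Its cytosolic counterpart Shmt1 averaged 6.66 ± 0.14 in Keap1_KO and 6.48 ± 0.09 in WT, a difference of 0.17 with a 95% interval of -0.21 to 0.56. The intervals of Shmt1 and Shmt2 (0.08 to 2.56) overlap, and the difference between these enzymes was not tested.

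Mthfd2, the mitochondrial dehydrogenase of proliferating cells and a known ATF4 target, read 8.04, 8.70 and 9.17 in Keap1_KO, against 8.04, 8.09 and 7.63 in WT. Keap1_KO B lay within the WT range, and the difference was 0.72 (SE 0.32, limma adjusted p = 0.476). Mthfd1l, which completes the mitochondrial branch by releasing formate, differed by 0.26 (95% interval -0.53 to 1.05), and turned to -0.02 without WT F. The cytosolic Mthfd1 differed by 0.23 (-0.59 to 1.06), and turned to -0.01 without Keap1_KO C.

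Asparagine and proline enzymes overlapped between genotypes. Asns, the asparagine synthetase gene whose promoter is printed above, read 5.72, 6.10 and 6.58 in Keap1_KO, against 5.92, 5.68 and 5.78 in WT, a difference of 0.34 (95% interval -0.26 to 0.93). Keap1_KO D was the highest array, and the difference was 0.12 without it. Aldh18a1, which starts proline synthesis from glutamate, averaged 8.32 ± 0.57 in Keap1_KO and 7.72 ± 0.52 in WT. Cth, the cystathionine lyase of cysteine synthesis, was dim, at 5.04, 4.91 and 4.85 in Keap1_KO, against 5.12, 5.12 and 5.47 in WT. Its Keap1_KO arrays all lay below WT, with 1 of 6 values at or above the array median.

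**Figure D4:**
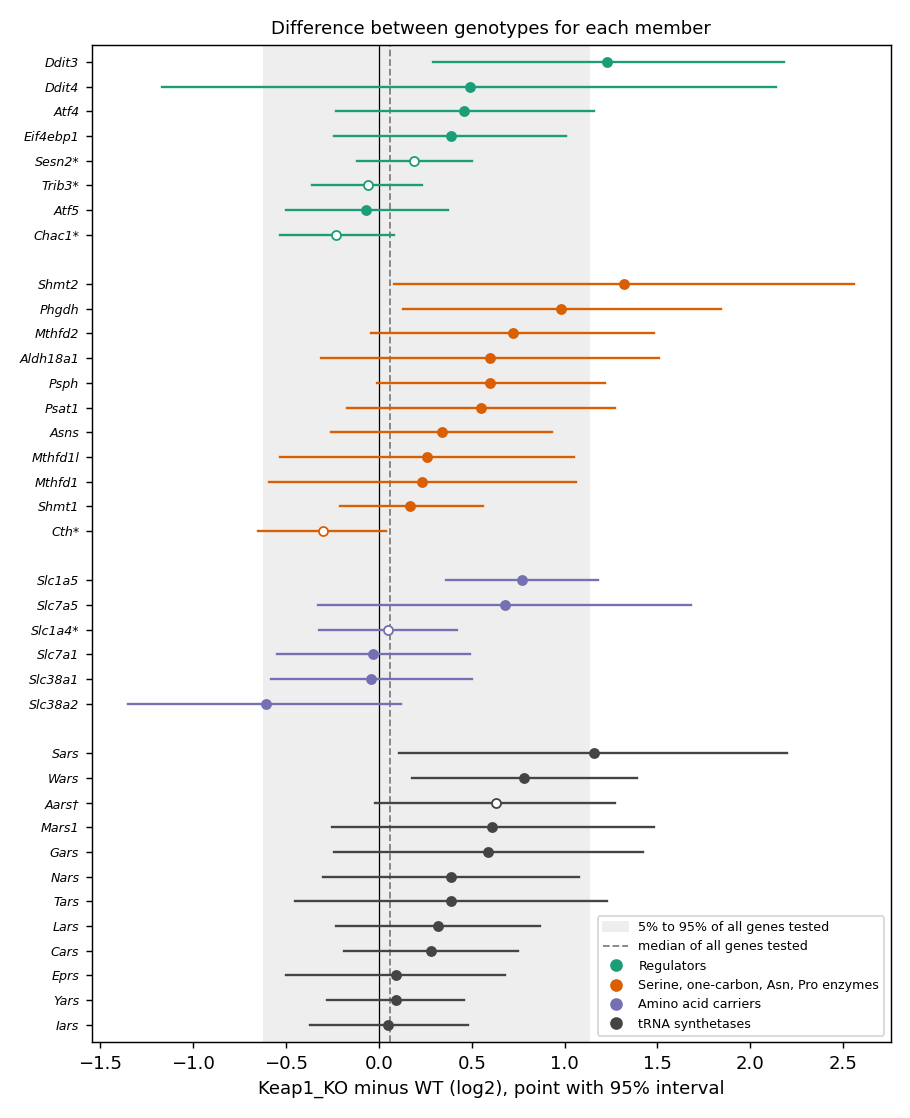
Difference Keap1_KO minus WT with its 95% limma interval for each member (log2), coloured by role, over the band that holds the central range of all genes tested (5% to 95%, from -0.62 to 1.13). Open points are members not among the genes tested; Ddit3, Shmt2 and Sars lie right of the band.

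The carriers had differences of both signs. Of the 5 tested, 2 had a higher mean in Keap1_KO and 3 a lower one (median -0.03). After median centring of the arrays 1 had a lower mean and the carriers' median stood at 0.08, and at 0.04 when quantile normalization was repeated. Slc1a5 encodes ASCT2, a sodium-dependent exchanger that brings glutamine into activated T cells. It read 8.76, 9.04 and 8.88 in Keap1_KO, against 8.31, 8.01 and 8.05 in WT. All 3 Keap1_KO arrays, including B, stood at least 0.45 above every WT array. The difference of 0.77 (SE 0.17, 1.71-fold, 95% interval 0.36 to 1.18) had the lowest unadjusted p of the members, 0.00352 (limma adjusted p = 0.476, exact permutation p = 0.1), and it stayed between 0.70 and 0.86 when any single array was left out.

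Slc38a2 showed the opposite order. It encodes SNAT2, a sodium-coupled carrier of small neutral amino acids and a known target of the amino acid response. It read 11.60, 10.77 and 10.94 in Keap1_KO, against 11.79, 12.08 and 11.29 in WT. Keap1_KO C and D lay below all WT arrays and Keap1_KO B above WT F. The difference was -0.61 (SE 0.30, limma adjusted p = 0.483), and 5.24% of the genes tested had a lower difference.

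The other carriers overlapped. Slc7a5, the light chain LAT1 that exchanges large neutral amino acids, averaged 9.51 ± 0.52 in Keap1_KO and 8.83 ± 0.69 in WT (difference 0.68, 95% interval -0.33 to 1.68, and 0.30 without WT F). Its partner chain Slc3a2 averaged 9.05 ± 0.67 in Keap1_KO and 8.50 ± 0.22 in WT. Slc7a1, the cationic amino acid carrier CAT1, averaged 8.34 ± 0.09 in Keap1_KO and 8.37 ± 0.35 in WT, and Slc38a1, a glutamine carrier related to SNAT2, 11.20 ± 0.29 in Keap1_KO and 11.25 ± 0.25 in WT. The difference of Slc7a1 changed sign after median centring (0.08) and after repeated quantile normalization (0.04), and that of Slc38a1 after median centring (0.07). With single arrays left out, the difference of Slc7a1 ranged from -0.20 to 0.14 and that of Slc38a1 from -0.21 to 0.09. Slc1a4, an alanine, serine and cysteine exchanger, was dim, at 4.98 ± 0.22 in Keap1_KO and 4.93 ± 0.13 in WT. Over the 13 other amino acid carriers tested, 9 had a higher mean (median 0.12), and the proton-coupled lysosomal carrier Slc36a1, with 0.51 (6.86 to 7.22 in Keap1_KO and 6.56 to 6.60 in WT), was among 4 of the 13 with every Keap1_KO array above every WT array (background 9.11% of all genes and 10.7% of protein-coding genes).

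All 11 synthetases tested had a higher mean in Keap1_KO cells, with small differences for most. Their median was 0.39 and their range 0.05 to 1.16, and without WT F the median was 0.15. Sars, which charges tRNA with serine, read 10.71, 11.66 and 12.14 in Keap1_KO, against 10.42, 10.83 and 9.78 in WT. Keap1_KO B lay between WT A and WT D, and the difference was 1.16 (SE 0.43, 2.23-fold, limma adjusted p = 0.476).

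Wars, the tryptophan enzyme, which interferon gamma is also known to induce, read 8.09, 8.74 and 8.69 in Keap1_KO, against 7.86, 7.92 and 7.40 in WT. It was the only 1 of the 11 synthetases tested among the members to separate the groups, by 0.18. That share is near the background (9.11% of all genes and 10.7% of protein-coding genes). Farsa, among the other cytosolic synthetases, separated the groups as well, by 0.02. The difference of Wars was 0.78 (SE 0.25, 1.72-fold, limma adjusted p = 0.476, exact permutation p = 0.1). The cluster that Aars shares with Exosc6 read 7.32, 7.94 and 8.03 in Keap1_KO, against 7.32, 7.35 and 6.72 in WT, and the signals of these genes cannot be told apart.

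The other synthetases overlapped between genotypes. Mars1 (methionine) differed by 0.61 (95% interval -0.25 to 1.48), Gars (glycine) by 0.59 (-0.24 to 1.42), Nars (asparagine) by 0.39 (-0.30 to 1.08) and Tars (threonine) by 0.39 (-0.45 to 1.23). Lars (leucine) differed by 0.32 and Cars (cysteine) by 0.28. Eprs, the fused enzyme for glutamate and proline, differed by 0.09, Yars (tyrosine) by 0.09 and Iars (isoleucine) by 0.05. Without WT F the differences were 0.30 for Gars, 0.15 for Nars, 0.00 for Tars and 0.12 for Lars, and without Keap1_KO D that of Mars1 was 0.33. For Eprs and Iars the sign turned without WT F (-0.04 and -0.07) and with array weights (-0.08 and -0.04), and for Eprs also without Keap1_KO D (-0.08). Gars, Tars, Iars and Yars carry the C/EBP-ATF letters printed above.

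Of the 10 members with the element, 5 could be compared with the rest, as the others were not among the genes tested. The relation of the element to the differences was not tested. The 5 tested members whose window holds TGATGNAA (Asns, Gars, Iars, Tars and Yars) had a median difference of 0.34 (range 0.05 to 0.59), and the 18 tested members whose window lacks it had a median of 0.52 (-0.61 to 1.32). Of the 6 members with an unadjusted p under 0.05, Ddit3, Phgdh, Shmt2 and Sars have a window. The letters stand in 0 of these 4 windows and in 10 of the 29 members with a window, and 4 windows are too few to compare. For the antioxidant response element the median was 0.34 in 7 tested members with the letters (range -0.61 to 0.98). It was 0.48 in 16 without (-0.07 to 1.32). The 7 were Phgdh, Psph, Slc7a1, Asns, Mars1, Iars and Slc38a2, of which Phgdh was the highest and Slc38a2 the lowest. The windows are short, and letters outside them were not searched.

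Genes around the members, taken from lists of pathway neighbours, gave these counts, with 0 past the adjusted limma threshold in every list. All 10 tested genes among other cytosolic synthetases and scaffolds had a higher mean (median 0.71), led by Aimp1 with 1.62 and Aimp2 with 1.26, scaffolds of the multisynthetase complex. Aimp1 read 9.79, 11.70 and 11.75 in Keap1_KO, against 9.23, 10.07 and 9.07 in WT, again with Keap1_KO B inside the WT range. Mitochondrial synthetases had 11 of 15 higher with a median of 0.15, led by Cars2 with 0.75 and Fars2 with 0.66.

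Upstream of ATF4, 10 of 12 genes of eIF2 kinases, phosphatase subunits and the exchange factor eIF2B had a higher mean (median 0.25), with the eIF2B subunit genes Eif2b2 and Eif2b5 at 1.34 and 1.03. The kinase genes themselves were near 0 or overlapped widely, at 0.04 for the amino acid sensor kinase gene Eif2ak4 (GCN2), 0.13 for the endoplasmic reticulum kinase gene Eif2ak3 (PERK), 0.30 for the heme-regulated Eif2ak1 and -0.43 for the RNA-activated Eif2ak2. Of 17 genes of amino acid sensing and mTORC1, 12 had a higher mean (median 0.12), with 1.19 each for Castor1, an arginine sensor gene, and Nprl2, a GATOR1 subunit gene. Among 8 other ATF4-linked genes tested, 7 were higher (median 0.19), led by Nfe2l2 (NRF2) with 1.01 and Herpud1 with 0.92.

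Enzymes on neighbouring reactions were fewer on the arrays. Of 9 folate, methionine and transsulfuration genes, 5 had a higher mean (median 0.08), and the largest differences were 1.42 for Ahcy, the hydrolase that clears S-adenosylhomocysteine, and 0.40 for the glycine cleavage gene Gcsh. Of 4 glutamine, glutamate and proline genes tested, 3 had a higher mean (median 0.91), led by Oat (1.39) and Got2 (1.21), the mitochondrial ornithine and aspartate aminotransferases. Got2 separated the groups by 0.02, at 7.62, 9.02 and 8.99 in Keap1_KO, against 7.37, 7.60 and 7.03 in WT (limma adjusted p = 0.476). The background for such separation was 9.11% of all genes and 10.7% of protein-coding genes. Oat and Ahcy overlapped between genotypes.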

How the data were processed

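Expression was measured in 6 samples on arrays, 1 array per sample. The deposited values are log2 values per transcript cluster, and the submitters' processing notes name RMA, Transcriptome Analysis Console and Affymetrix Expression Console as the authors' tools without versions or roles; no other step is given in the sources used here. Values reached 19.93, above the 16 that a 16-bit scanner allows on the log2 scale, so a further scaling of unstated form lies behind them. Of 65528 clusters, 30354 carried 1 symbol in the annotation table of the platform, and symbols were updated by Entrez identifier. That table belongs to another Affymetrix mouse array than the one named in the series' design text, and every gene name rests on the match of row identifiers to it. A cluster at or above its array's median on at least 3 of 6 arrays was tested, the brightest standing for its gene. Keap1_KO and WT were compared with limma 3.58.1 (R 4.3.3), two-sided, adjusted over 16825 genes (Benjamini-Hochberg), after tests on simulated data. The simulated arrays had independent noise with each gene's SD capped at the median SD. Those tests therefore do not show how the fit performs at the spread of the real arrays. Genes below the filter took their values from a fit without it. All 38 members are named, and of each neighbour list the 2 largest differences; further genes named were chosen after their values were seen. Members and lists were chosen with earlier results of these data known. The number of arrays limits the precision. The promoter sequence of 1 member with the C/EBP-ATF letters is not reported here.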

Additional observations from a re-analysis of the deposited data

How the results depend on the processing

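Under 6 other settings and 6 fits that each left out 1 array, the number of genes past the adjusted limma threshold was 0 in 10, as with all arrays (1733 genes at an unadjusted p under 0.05). With estimated array weights (0.35 for Keap1_KO B and 3.38 for WT A) it was 1880 (11.2%), and 9 members passed: Ddit3, Psat1, Phgdh, Psph, Shmt2, Slc1a5, Sars and Wars higher and Slc38a2 lower in Keap1_KO. With single arrays left out it ranged from 0 to 569, and the members past it from 0 to 2, both highest without Keap1_KO B. Members with all Keap1_KO arrays above all WT arrays numbered 3 after repeated quantile normalization and from 5 to 20 with single arrays left out (12 without WT D, background 23.7%, and 20 without Keap1_KO B, background 31.4%). Members wholly below numbered 1 with no intensity filter (Cth) and from 0 to 1 with single arrays left out. Without Keap1_KO B the number wholly below was 1 (background 18.1%). For repeated quantile normalization, no intensity filter and the remaining fits, the share of all genes is not given, so those counts stand without a background. Centring arrays on their medians moved the median of all genes by 0.11, to 0.17, and that of the members to 0.50. The medians of enzymes, regulators and synthetases stayed above 0 under these 12 settings, at 0.40 to 0.87, 0.18 to 0.60 and 0.15 to 0.62, while that of the carriers ranged from -0.16 to 0.14. The cause of these changes was not tested. No paired analysis was possible because the genotypes share only the replicate letter D. Probes below the array median limit Trib3, Chac1, Sesn2, Cth and Slc1a4.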
